A study of Rattus norvegicus with 4 samples.

Results

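The genes described here encode the lysosomal proton pump, the lysosomal hydrolases and the proteins of the lysosomal membrane and lumen, in rat cortical cells cultured on 4 hydrogels. They were chosen by gene name: every symbol that begins with Atp6v0, Atp6v1 or Atp6ap, every cathepsin with a single closing letter, every numbered Lamp gene, and 17 further lysosomal genes. The files name 55 such genes of 18755, and 43 of them reached 1 FPKM in 1 or more libraries, as did 12394 genes in all. FPKM is the read count scaled to gene model length and to the summed count of the library. Of the 43, 16 encode pump subunits, 18 hydrolases and 8 membrane proteins or lumenal cofactors. The remaining one, Atp6v1fnb, is matched by its symbol alone, since its name marks it as a neighbour of a pump gene and not as a subunit, and it was at 1.70, 2.07, 1.41 and 1.54 FPKM.

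Primary cells were taken from the cerebral cortex of SD rats at embryonic day 16, seeded at 100000 cells per well and kept for 24 h in Neurobasal medium with B27 on a hydrogel called SFMA, N-SFMA, L-SFMA or NL-SFMA. All 4 groups share the cells, the medium and the time and differ in the hydrogel. The treatment labels write L@SFMA and NL@SFMA for the last pair, and the labels do not spell out N and L. Each hydrogel has 1 poly(A) RNA library from a group of 5 wells, and whether those wells were pooled is not stated. The stated purpose concerns adhesion signals between cells, presented by a gel, and the growth of neural tissue.

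Lysosomes are acidic compartments in which proteins, lipids and glycans are broken down and from which the products are exported. The V-ATPase, a rotary proton pump, acidifies them: its cytosolic V1 sector hydrolyses ATP and its membrane-bound V0 sector carries the protons. In neurons the same pump also acidifies synaptic vesicles, and inherited defects of lysosomal hydrolases and membrane proteins often cause neurodegeneration in childhood. The transcription factor TFEB and its relatives activate many of these genes through a palindromic promoter element with the core CACGTG.

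Values that stand in fours are in the order SFMA, N-SFMA, L-SFMA, NL-SFMA, and values in threes are the modified hydrogels in that order. The libraries held 17553098, 15429180, 16340264 and 14172205 counted reads. A single library per hydrogel leaves every difference without a replicate check, and no p-value is given. Differences are log2 ratios of (FPKM + 1), and a gene is counted as higher or lower when it lies at least 1.5-fold from SFMA on that scale. A fold given for 1 gene divides its CPM, the count scaled to the summed count of the library, between libraries, and carries an exact (Clopper-Pearson) 95% interval that covers counting error only, because amplified reads without molecular tags do not each stand for a molecule. The 3 comparisons share the SFMA library. The log2 differences over all genes followed gene model length (r = 0.46, 0.53 and 0.50, across 12394 genes of the same library pairs, which are not independent replicates). Most differences are therefore also given with the smoothed trend over all tested genes subtracted, which is called trend-removed.

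Markers of neurons and of radial glia were both abundant. All 14 neuronal markers were detected in every library, with summed levels of 2912, 3928, 3195 and 3084 FPKM, led by Tubb3, Stmn2 and Dcx. The 14 radial glia and astrocyte markers, led by Vim, Fabp7 and Sox2, summed to 1574, 711, 705 and 785 FPKM. The 14 microglia and macrophage markers found of 15 listed, led by Lyz2, Tyrobp and Cd68, summed to 62.3, 25.02, 38.8 and 17.3 FPKM, with C1qa, C1qc, P2ry12 and Trem2 at 0 reads in at least 1 library. Erythroid markers (8 of 11 found, led by Hba-a1, Hbb and Hbe1, with Epb42 at 0 in NL-SFMA) summed to 561, 166, 93.5 and 73.2 FPKM. All 9 endothelial and pericyte markers found of 10 stayed under the FPKM limit in every library, with Cdh5 at 0 in N-SFMA. Mitochondrially encoded genes held 5.89% of the reads in NL-SFMA and 2.23% to 2.68% in the other libraries. In such bulk samples fewer cells of a type and less RNA per cell cannot be told apart.

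Promoter sequences were available for 43 of the 55 genes in the RefSeq table of build GRCr8, which runs from 250 bases before to 50 bases after each gene's start. Those of Asah1, Atp6v0d2, Atp6v0e2, Atp6v1b2, Atp6v1c1, Atp6v1fnb, Atp6v1h, Ctsb, Ctsw, Hexa, Ppt1 and Psap are missing there. The core CACGTG, which reads the same on both strands, was found in 10 of these 43 windows (23.3%) and in 6.42% of all 33469 windows of the same length. The longer TCACGTGA, which contains the core, was found in 5 (11.6%) and in 0.777% of all. The 10-base palindrome, with a further G before and a further C after TCACGTGA, was found in 0 of the 43 and in 0.233% of all. The higher shares thus hold for the shorter forms and were not seen for the 10-base form. That form is too rare among all windows for its absence from 43 to be read as a difference. The 33469 windows were not limited to genes measured here, so all these shares compare unlike sets. Lamp1 held 5 cores, Ctsd and Mcoln1 held 2 each, and Atp6v0d1, Atp6v0e1, Ctsf, Gaa, Glb1, Idua and Tmem175 held 1 each. The stretches below end at the last base before the gene's start, with the core in capitals. They are shown because Lamp1 and Ctsd are the members richest in the core among those with high levels, Atp6v0d1 is a pump gene with 1 core, and Atp6v0c is the most abundant member and holds none. The Lamp1 stretch is chr16:83075064-83075263, Ctsd chr1:206968822-206968991, Atp6v0d1 chr19:50357249-50357348 and Atp6v0c chr10:13705843-13705942, all on the minus strand of GRCr8 and written 5′ to 3′.
Lamp1: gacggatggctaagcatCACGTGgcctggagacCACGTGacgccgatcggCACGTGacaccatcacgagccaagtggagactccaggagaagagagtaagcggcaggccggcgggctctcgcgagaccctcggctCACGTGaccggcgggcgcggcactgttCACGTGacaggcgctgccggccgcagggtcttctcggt
Ctsd: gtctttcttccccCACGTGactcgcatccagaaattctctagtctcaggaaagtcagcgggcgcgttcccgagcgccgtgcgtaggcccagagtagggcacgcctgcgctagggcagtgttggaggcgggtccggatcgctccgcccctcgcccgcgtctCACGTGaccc
Atp6v0d1: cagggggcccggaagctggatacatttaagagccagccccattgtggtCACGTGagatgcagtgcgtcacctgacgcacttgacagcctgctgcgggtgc
Atp6v0c: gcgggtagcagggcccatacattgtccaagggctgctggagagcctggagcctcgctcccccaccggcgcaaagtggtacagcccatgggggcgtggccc
A match is a description of the letters and not a binding site. The 9 genes with the core that reached the FPKM limit had median log2 differences from SFMA of -0.07, 0.11 and -0.62. The 24 without it had medians of -0.09, -0.08 and -0.44, and the ranges of both sets overlapped in every comparison. The length trend was not removed from these medians.

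Across the 43 genes, the libraries differed most on NL-SFMA. There 4 genes were higher and 19 lower than in SFMA, where 21.6% and 29.3% of all tested genes were called so. On N-SFMA 1 gene was higher and 4 were lower (7.24% and 10.7% of all tested genes), and on L-SFMA 4 were higher and 1 was lower (14.8% and 11.1%). The share of lower genes on NL-SFMA was thus above the background and the shares on the single-letter hydrogels were not. With the length trend removed the counts on NL-SFMA were 2 higher and 7 lower, beside 19.1% and 18.9% of all tested genes, shares of the 43 that lie under that background. On N-SFMA they were then 0 and 2 (5.79% and 6.78%), and on L-SFMA 1 and 0 (8.12% and 7.44%). The median over the 43 genes was -0.07, -0.15 and -0.38, against -0.02, 0.05 and -0.10 over all tested genes. After removal of the trend it was 0.01, -0.00 and -0.03. NL-SFMA held the lowest level of 23 of the 43 genes, and SFMA held the highest level of 21. The same counts were not taken over all tested genes, so they describe the 43 alone and show nothing particular to them. At 2-fold, 6 of the 43 were lower on NL-SFMA (15.1% of all tested genes) and 0 were higher (10.1%). On N-SFMA 0 were 2-fold higher and 0 lower (0.855% and 2.65% of all), and likewise on L-SFMA (3.32% and 3.04%).

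**Figure D1:**
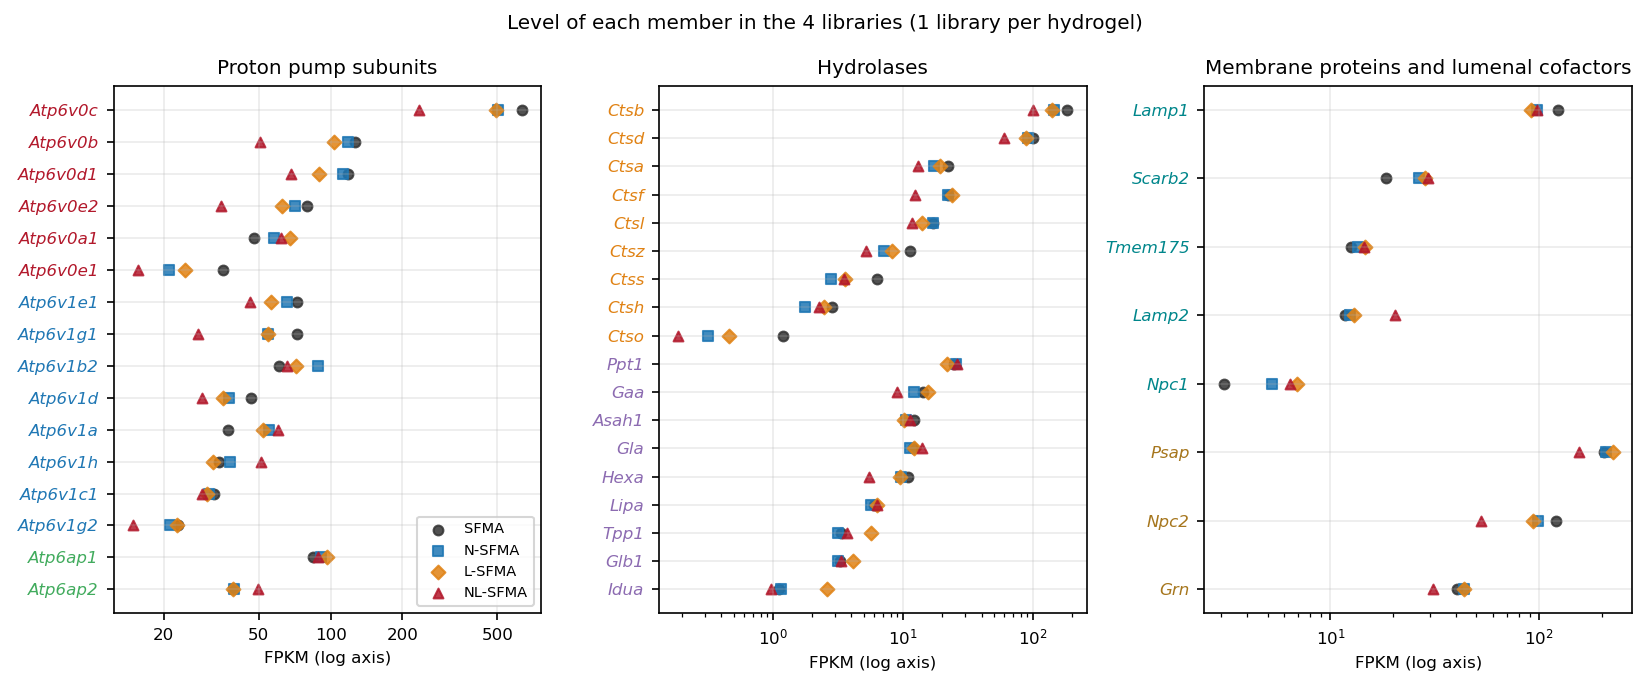
FPKM (log axis) of the 42 pump, hydrolase, membrane and cofactor genes in the 4 libraries, 1 marker per library, with gene names coloured by class. Most V0 subunits and cathepsins are lowest in NL-SFMA (triangles), while Atp6v1a, Atp6v1h, Lamp2, Npc1 and Scarb2 are lower in SFMA (circles) than in NL-SFMA.

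The V0 sector of the pump was lower on NL-SFMA in 5 of its 6 genes that reached the FPKM limit, by 1.5-fold or more (29.3% of all tested genes), and in 2 of 6 with the trend removed (18.9%). Atp6v0c encodes the proteolipid that forms most of the proton-carrying ring and was the most abundant member, at 633, 502, 495 and 234 FPKM. SFMA was high, N-SFMA and L-SFMA lay close together, and NL-SFMA stood well under all of them. On NL-SFMA it was 2.71-fold lower than in SFMA (95% counting interval 2.61 to 2.81), a log2 difference of -1.43 as measured and -0.63 trend-removed. Atp6v0b, the related ring subunit, was at 126, 118, 103 and 50.5 FPKM, 2.503-fold lower on NL-SFMA (2.31 to 2.71). Its trend-removed difference of -0.47 was under 1.5-fold, and its gene model, like that of Atp6v0c, is among the shortest here (1145 and 1231 bases).

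Subunit d, which links the ring to the stalk, came almost wholly from Atp6v0d1, at 118, 113, 89.0 and 68.3 FPKM. It was 1.73-fold lower on NL-SFMA (1.65 to 1.81) and, with the trend removed, stood at -0.57. Subunit e, a small membrane protein of the V0 sector, is encoded by a pair of genes. Atp6v0e1 was at 35.3, 21.0, 24.5 and 15.5 FPKM, and Atp6v0e2, the form enriched in brain, was at 79.6, 70.6, 62.4 and 34.7 FPKM. Both were highest in SFMA and lowest in NL-SFMA, 2.27-fold (2.02 to 2.55) and 2.30-fold lower there (2.16 to 2.44). Atp6v0e1 was also lower on N-SFMA (-0.72, trend-removed -0.48). Atp6v0e2 has a gene model of 2713 bases, near the middle of the range, and stayed at -0.95 on NL-SFMA with the trend removed.

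Atp6v0a1, which encodes the large a subunit that holds the proton half-channels in neurons, went the other way. It was at 47.6, 58.1, 67.7 and 61.8 FPKM. SFMA was the lowest library and L-SFMA the highest, with folds of 1.22 (1.17 to 1.28), 1.42 (1.36 to 1.49) and 1.298 (1.24 to 1.36). None of these reached 1.5-fold, and the trend-removed differences were 0.19, 0.29 and 0.22. The 6 V0 genes together had median differences of -0.14, -0.35 and -1.15, which became 0.01, -0.12 and -0.55 with the trend removed.

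The V1 sector did not move as one on NL-SFMA: of its 8 genes 1 was called higher and 4 lower (21.6% and 29.3% of all tested genes). With the trend removed 0 were higher and 1 lower (19.1% and 18.9%). Atp6v1a encodes the catalytic A subunit and was at 37.2, 55.4, 51.9 and 60.4 FPKM. All 3 modified hydrogels stood above SFMA, by 1.49-fold (1.42 to 1.56), 1.39-fold (1.33 to 1.46) and 1.62-fold (1.55 to 1.70). Its gene model of 5253 bases is the longest of the pump, and the trend-removed differences were 0.36, 0.11 and 0.28. Atp6v1b2, the B subunit of neurons, was at 60.5, 88.5, 71.3 and 65.9 FPKM, highest in N-SFMA. There it was 1.46-fold higher (1.40 to 1.53), and 0.55 with the trend removed, the highest trend-removed value of the 43 genes on N-SFMA. Atp6v1h, whose product restrains ATP hydrolysis by detached V1, was at 34.0, 37.8, 32.2 and 50.9 FPKM. It stood out in NL-SFMA alone, where its log2 difference was 0.57 and 0.51 trend-removed.

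Among the stalk subunits of V1, Atp6v1g1 was lower on NL-SFMA both as measured and trend-removed. Atp6v1g1, a G subunit of the outer stalks, was at 72.1, 54.8, 54.5 and 27.8 FPKM, 2.59-fold lower on NL-SFMA (2.42 to 2.77). The log2 difference was -1.34 as measured and -1.16 trend-removed, the lowest trend-removed value of the 43 genes. Its partner in the outer stalks, Atp6v1e1, was at 72.3, 65.4, 56.0 and 45.9 FPKM. Atp6v1d of the central shaft was at 46.2, 37.5, 35.3 and 28.9 FPKM. For both, SFMA was highest and NL-SFMA lowest, with log2 differences on NL-SFMA of -0.64 and -0.66, and -0.40 and -0.51 trend-removed, which are under 1.5-fold. Atp6v1c1, which joins the stalks to the membrane sector, was at 32.5, 30.8, 30.3 and 28.9 FPKM, a spread of under 1.5-fold over all 4 libraries, and stood at 0.23 trend-removed on NL-SFMA.

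Length did not order the pump genes completely. Across the 16 pump genes the log2 difference on NL-SFMA correlated with log2 model length at r = 0.67, and at 0.28 with the trend removed, over points from the same library pair. Windows of length were set after the values were seen. In that of 2600 to 3300 bases lay Atp6v0d1, Atp6v0e2, Atp6v1b2, Atp6v1d, Atp6v1e1 and Atp6v1g1. Their differences on NL-SFMA ran from -1.34 to 0.12 with a median of -0.72, where the 1859 tested genes of that length had a median of -0.16 and an interquartile range of -0.56 to 0.24. Among these 6 genes of like length, Atp6v1b2 was the only one above SFMA. In the window of 1000 to 2000 bases, Atp6v0b, Atp6v0c, Atp6v0e1 and Atp6v1g2 had a median of -1.22, against -0.70 for 2536 tested genes. The interquartile range of those 2536 was -1.16 to -0.20. In that of 3500 to 5500 bases, Atp6v0a1, Atp6v1a and Atp6v1h had a median of 0.57, against 0.21 for 2931. The pump medians on NL-SFMA thus lay below those of genes of like length in the shorter windows and above in the longest. In the longest window the pump median lay inside the interquartile range of all genes there (-0.22 to 0.64). Single genes differed: Atp6v1g2 (-0.59) and Atp6v1b2 (0.12) lay above the all-gene median of their windows. Atp6ap2, Atp6v1c1 and Atp6ap1 (2046, 2297 and 2461 bases) fell in none of the windows. They stood at 0.85, 0.23 and 0.38 trend-removed on NL-SFMA.

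**Figure D2:**
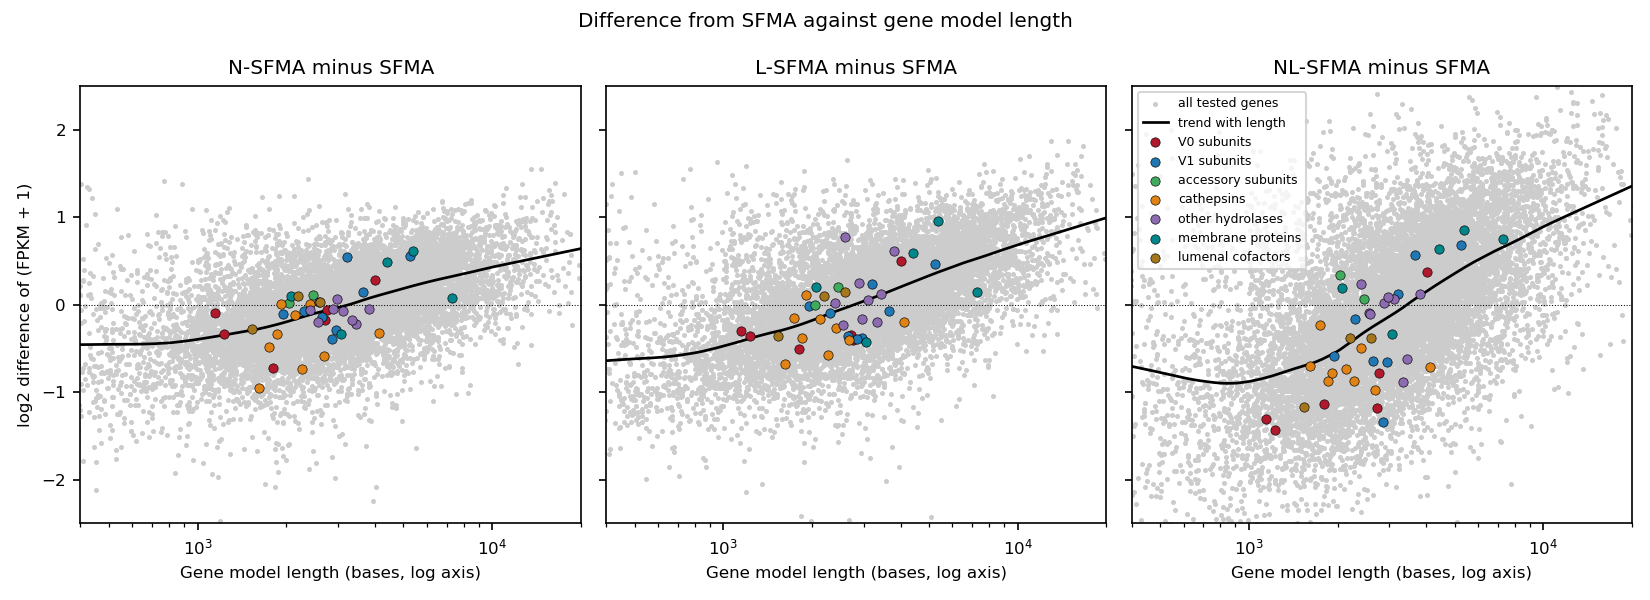
Log2 difference of (FPKM + 1) from SFMA against gene model length in bases (log axis) for all tested genes (grey), with the smoothed trend (line) and the members coloured by class; 1 panel per hydrogel. The vertical axis is limited to 2.5 either way, and some grey points lie outside. On NL-SFMA the V0 genes lie under the line except Atp6v0a1, and Atp6ap2 lies above it.

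The accessory subunits showed none of the lower values of the V0 ring. Atp6ap1, which guides V0 assembly, was at 84.1, 90.9, 96.9 and 88.2 FPKM. Atp6ap2, the prorenin receptor, was at 39.1, 39.5, 39.1 and 49.8 FPKM, nearly level in the first 3 and higher in NL-SFMA by 1.27-fold (1.18 to 1.37). With the trend removed Atp6ap2 stood at 0.85 on NL-SFMA, the highest trend-removed value of the 43 genes there, and Atp6ap1 at 0.38.

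Isoform use within a subunit can be compared per length inside a library. Atp6v1g2, the neuronal G subunit, was at 22.9, 21.2, 22.7 and 14.9 FPKM. Its share of the summed FPKM of both G genes was 24.1% (95% counting interval 22.7 to 25.5), 27.9% (26.1 to 29.7), 29.4% (27.7 to 31.2) and 34.8% (32.2 to 37.4). The neuronal form thus held its smallest share in SFMA and its largest in NL-SFMA, beyond counting error. The annotated span of Atp6v1g2 overlaps that of Nfkbil1 (20.7, 15.7, 18.2 and 5.86 FPKM). The share of Atp6v0e2 in subunit e was 69.3% (67.8 to 70.7), 77.04% (75.4 to 78.6), 71.8% (70.1 to 73.5) and 69.1% (66.6 to 71.5), higher in N-SFMA than elsewhere and with overlapping intervals in SFMA and NL-SFMA. These shares do not allow for the length trend between libraries: on NL-SFMA Atp6v0e2 was at -0.95 and the shorter Atp6v0e1 at -0.52 trend-removed, and Atp6v1g2 at -0.04 beside -1.16 for Atp6v1g1. The forms typical of kidney and bone were near absent: Atp6v1b1 had 0, 0, 0 and 1 reads and Atp6v0d2 had 0, 2, 0 and 0, where 3 reads correspond to 0.171 to 0.212 CPM.

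**Figure D3:**
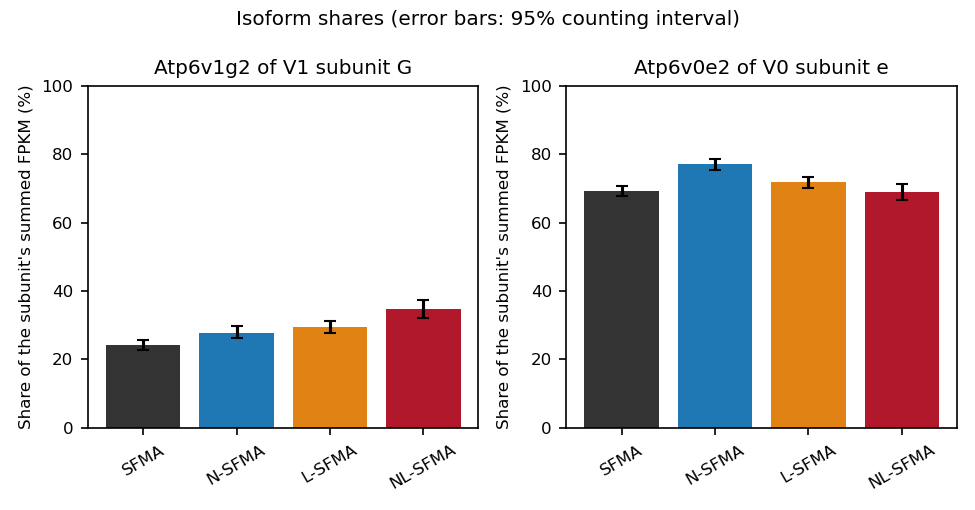
Share of Atp6v1g2 in the summed FPKM of subunit G (left) and of Atp6v0e2 in that of subunit e (right), in percent, for each library; error bars are 95% counting intervals. The Atp6v1g2 share runs from 24.1% in SFMA to 34.8% in NL-SFMA, and the Atp6v0e2 share is highest in N-SFMA at 77.04%.

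The cathepsins, the main lysosomal proteases, lay below SFMA in all 9 genes on NL-SFMA as measured, as did 6750 of the 12394 tested genes. In 7 of the 9 the difference was 1.5-fold or more (29.3% of all tested genes). With the trend removed 2 of 9 were lower (18.9%) and Ctsh stood above SFMA at 0.40. Without Ctso, which reached the FPKM limit through SFMA alone, the counts were 6 of 8 and 2 of 8. Over all 9 the median differences were -0.34, -0.27 and -0.73, and -0.23, -0.19 and -0.26 trend-removed. Without Ctso the medians were -0.33, -0.24 and -0.72, and -0.17, -0.18 and -0.24 trend-removed. Ctsb, a cysteine protease, was the most abundant at 182, 144, 139.7 and 99.0 FPKM. Ctsd, the aspartic protease, was at 99.1, 91.2, 88.6 and 59.4 FPKM. Both were highest in SFMA and lowest in NL-SFMA, 1.84-fold (1.76 to 1.93) and 1.67-fold lower (1.58 to 1.77), and both lay within 1.5-fold with the trend removed (-0.28 and -0.26). The cysteine proteases Ctsf (22.02, 22.1, 23.9 and 12.4 FPKM) and Ctsl (16.9, 17.0, 13.9 and 11.6 FPKM) had their lowest level in NL-SFMA too.

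Ctsa and Ctsz were lower on NL-SFMA with and without the length trend. Ctsa, a carboxypeptidase that also protects other lysosomal glycosidases, was at 22.1, 17.4, 19.0 and 13.1 FPKM. Its gene model of 4116 bases is long, and its difference on NL-SFMA was -0.71 as measured and -0.89 trend-removed. Ctsz, a cysteine carboxypeptidase, was at 11.2, 7.12, 8.25 and 5.22 FPKM, 2.15-fold lower on NL-SFMA (1.83 to 2.55) and -0.74 trend-removed. On the RefSeq annotation its span overlaps that of Nelfcd (51.0, 46.3, 48.3 and 25.9 FPKM). The strand setting of the counting is not stated, so reads from such overlaps cannot be told apart. The genes that overlap Atp6v1h, Ctsa, Glb1, Hexa and Psap were each at 4.30 FPKM or less.

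Ctss and Ctso had their highest level in SFMA. Ctss, a protease of microglia and macrophages, was at 6.31, 2.77, 3.56 and 3.49 FPKM. SFMA stood above the other libraries, by 2.28-fold (1.72 to 3.06) over N-SFMA, and the log2 differences were -0.96, -0.68 and -0.70, or -0.68, -0.40 and -0.03 trend-removed. Ctso was at 1.18, 0.314, 0.459 and 0.187 FPKM from 47, 11, 17 and 6 reads. It reached the FPKM limit through SFMA alone, so its lower values elsewhere follow from the selection. On L-SFMA it was under 1.5-fold on the scale of (FPKM + 1) (-0.58), where its CPM was 2.57-fold lower (1.45 to 4.78). Ctsh had 2.84, 1.75, 2.46 and 2.27 FPKM. Of the 14 microglial markers found, 13, 12 and 12 had a lower FPKM than in SFMA on the modified hydrogels. The exceptions were Itgam (0.472, 0.552, 0.774 and 0.860 FPKM) on each, C1qa on L-SFMA and Ptprc on NL-SFMA. Only 7 of the 14 markers reached the FPKM limit. Among the 12394 tested genes, 6461, 5720 and 6750 were lower than in SFMA. Aif1 reached the FPKM limit through SFMA alone, and the other 6 markers at the limit had median differences of -0.62, -0.51 and -0.93. With the trend removed those medians were -0.61, -0.47 and -0.76. The part of these markers in the cathepsin differences was not tested.

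**Figure D4:**
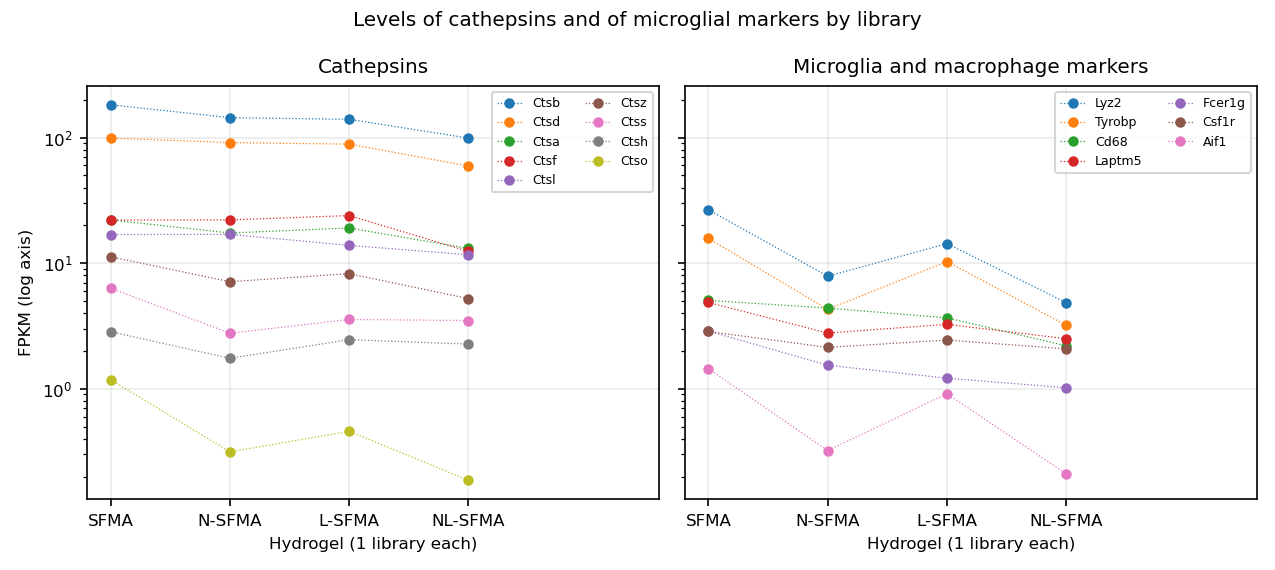
FPKM (log axis) of the 9 cathepsins (left) and of the 7 microglia and macrophage markers that reached the FPKM limit (right) on each hydrogel; dotted lines join the values of 1 gene and stand for no order. Ctsb and Ctsd lie between 59.4 and 182 FPKM, and Lyz2, the highest marker, at 26.6 FPKM in SFMA and 4.85 in NL-SFMA.

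The other hydrolases mostly lay near SFMA. On NL-SFMA 2 of 9 were lower by 1.5-fold and 0 were higher, as measured (29.3% and 21.6% of all tested genes) and also trend-removed (18.9% and 19.1%). The median was 0.02 (0.17 trend-removed). Hexa, the alpha chain of the hexosaminidase that degrades GM2 ganglioside, was at 10.9, 9.54, 9.37 and 5.43 FPKM. Gaa, the acid glucosidase that degrades glycogen, was at 14.2, 12.05, 15.5 and 8.89 FPKM. Both were lowest in NL-SFMA, 2.00-fold (1.73 to 2.33) and 1.59-fold lower than in SFMA (1.42 to 1.79), and their trend-removed differences of -0.85 and -0.62 were nearly those measured (-0.89 and -0.62).

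L-SFMA stood above the other libraries for a pair of hydrolases. Idua, which trims dermatan and heparan sulfate, was at 1.10, 1.15, 2.58 and 0.956 FPKM, from 50, 46, 109 and 35 reads. It was 2.34-fold higher on L-SFMA (1.66 to 3.34), and 0.81 trend-removed, the one gene of the 43 called higher there both ways. By the same annotation its span overlaps Dgkq, which was at 3.43, 4.22, 6.98 and 4.74 FPKM and was also highest in L-SFMA, and Slc26a1, which stayed under 1 FPKM. Tpp1, the tripeptidyl peptidase lost in a form of Batten disease, was at 3.32, 3.17, 5.63 and 3.71 FPKM. Its 1.69-fold excess on L-SFMA (1.43 to 2.01) was 0.44 trend-removed, under 1.5-fold.

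The remaining hydrolases stayed within 1.5-fold of SFMA in every comparison. Ppt1, which removes palmitate from proteins, was at 24.4, 25.6, 21.7 and 25.98 FPKM. Asah1, the acid ceramidase, was at 12.1, 10.5, 10.2 and 11.3 FPKM, and Gla, the alpha-galactosidase, at 11.8, 11.3, 12.01 and 14.0 FPKM. These levels were close together in all 4 libraries. The acid lipase Lipa lay between 5.60 and 6.28 FPKM and the beta-galactosidase Glb1 between 3.15 and 4.07 FPKM.

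Of the 5 membrane proteins that reached the limit, 3 were at least 1.5-fold higher on NL-SFMA and 0 lower (21.6% and 29.3% of all tested genes), with a median of 0.64 (0.39 trend-removed). With the trend removed 1 was higher (19.1%), Tmem175, which is not among those 3. On L-SFMA 2 were higher (14.8%), and 0 with the trend removed (8.12%). Npc1, which exports cholesterol from the lysosome, was at 3.08, 5.25, 6.91 and 6.40 FPKM. SFMA was lowest by 1.70-fold (1.47 to 1.98), 2.24-fold (1.95 to 2.59) and 2.08-fold (1.79 to 2.41). Its model is 5381 bases long, and the trend-removed differences of 0.40, 0.58 and 0.44 were all under the 1.5-fold limit. On the annotation its span overlaps Rmc1 (15.3, 18.3, 17.1 and 19.2 FPKM).

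Scarb2, the membrane protein that carries glucocerebrosidase to lysosomes, was at 18.6, 26.5, 28.4 and 29.4 FPKM. SFMA was again the lowest, and the differences of 0.49, 0.59 and 0.64 were 0.36, 0.33 and 0.39 trend-removed. Lamp2, which serves in autophagy and has the longest gene model of the 43 (7289 bases), was at 11.7, 12.4, 13.0 and 20.3 FPKM. It was high in NL-SFMA alone, 1.73-fold over SFMA (1.62 to 1.85), and 0.09 with the trend removed. On N-SFMA and L-SFMA its trend-removed differences were -0.25 and -0.39. Tmem175, an ion channel of the lysosome, was at 12.6, 13.6, 14.6 and 14.5 FPKM, a range of under 1.5-fold, yet its trend-removed difference on NL-SFMA was 0.69. Genes of its length (2072 bases) were mostly lower there.

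Lamp1, a heavily glycosylated protein and the most abundant of the 5, was at 123, 97.9, 91.3 and 97.3 FPKM. SFMA was highest and the other 3 lay together, with log2 differences of -0.33, -0.43 and -0.34 that were -0.30, -0.48 and -0.22 trend-removed. Thus Lamp1, with 5 core elements before its start, was under SFMA on all 3 modified hydrogels by less than 1.5-fold, and its level on NL-SFMA lay between those on N-SFMA and L-SFMA.

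Of the lumenal cofactors, Npc2 differed most. Npc2, which hands cholesterol to the Npc1 protein, was at 121, 99.1, 93.9 and 52.9 FPKM. It was 2.28-fold lower on NL-SFMA (2.13 to 2.44), with a short model of 1535 bases and a trend-removed difference of -0.47. Npc1 and Npc2, partners in 1 export step, thus lay on opposite sides of SFMA on NL-SFMA, both as measured and trend-removed. Psap, the precursor of the saposins that present lipids to hydrolases, was at 204, 209, 225 and 156 FPKM. Progranulin, encoded by Grn, was at 40.5, 43.6, 43.6 and 30.9 FPKM. Both had their lowest level in NL-SFMA, by less than 1.5-fold (-0.38 each), and were -0.12 and 0.06 trend-removed.

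**Figure D5:**
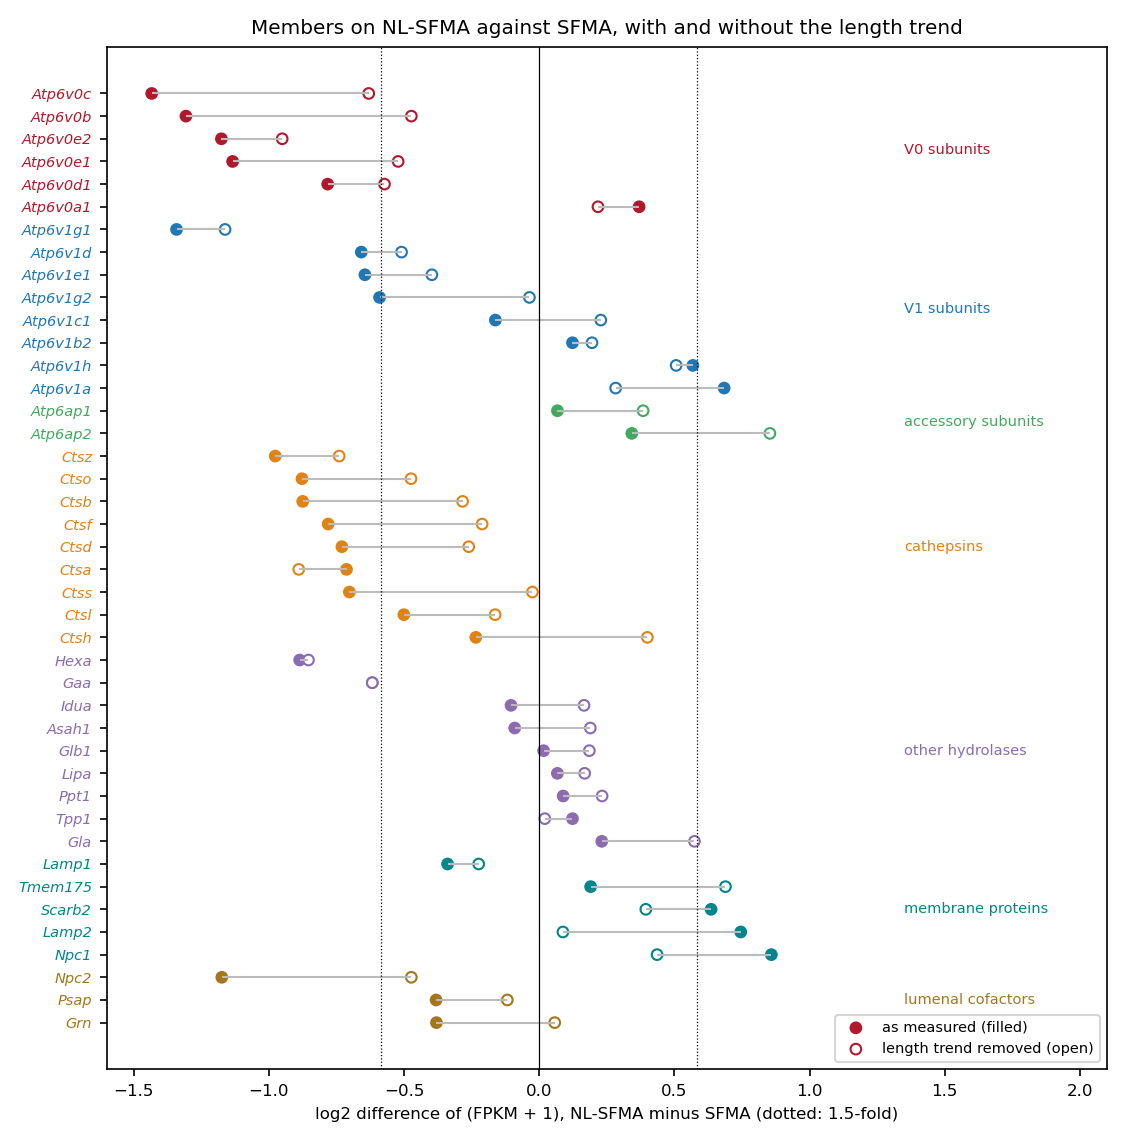
Log2 difference of (FPKM + 1) between NL-SFMA and SFMA for the 42 classed members, as measured (filled) and with the length trend removed (open); dotted lines mark 1.5-fold and a grey line joins both values of a gene. Atp6v1g1, Atp6v0e2, Atp6v0c, Ctsa, Ctsz, Hexa and Gaa lie past 1.5-fold lower both ways, while the V0 ring genes and Npc2 move most between both values.

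Once length was allowed for, the class medians lay closer together on NL-SFMA and L-SFMA and further apart on N-SFMA. On NL-SFMA the medians were -0.62 for pump subunits, -0.56 for hydrolases and -0.07 for membrane proteins with cofactors, and -0.22, -0.09 and 0.07 with the trend removed, against -0.10 and -0.01 for all tested genes. On N-SFMA they were -0.09, -0.15 and 0.09 (trend-removed 0.08, -0.11 and 0.19). On L-SFMA they were -0.20, -0.16 and 0.14 (trend-removed 0.02, -0.09 and 0.20). Differences between classes have no test here, and the median model lengths of the classes were 2679, 2569 and 2832 bases. The 7 genes lower on NL-SFMA both ways were Atp6v0c, Atp6v0e2, Atp6v1g1, Ctsa, Ctsz, Gaa and Hexa, and none of the genes called higher as measured was also called higher trend-removed. The as-measured difference of Gaa fell under 1.5-fold with another scaling of the libraries (-0.53).

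The other 12 members stayed under the FPKM limit. Tfeb itself, a regulator of lysosomal genes, had 30, 23, 22 and 9 reads, with 0.5005 FPKM at most. It was the member nearest below the limit, and Ctso, at 1.18 FPKM at most, the nearest above. Mcoln1, a cation channel of the lysosome, had 0, 5, 4 and 0 reads. The others were Atp6v0d2, Atp6v1b1, Atp6v1c2, Atp6v1e2, Atp6ap1l, Ctsc, Ctsk, Ctsw, Lamp3 and Lamp5, with 0 to 28 reads in any library. No fold is read from them.

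Genes that assemble or regulate the pump differed by more than its subunits in several cases. The list of V-ATPase assembly factors and regulators also holds Tcirg1, which encodes a pump subunit. Tcirg1 stayed within 1.5-fold of SFMA (1.31, 1.32, 1.53 and 0.869 FPKM). The list had 11 genes that reached the limit, 5 higher and 2 lower on NL-SFMA (median 0.47, trend-removed 0.22 with 5 higher and 1 lower), 2 higher on N-SFMA and 3 on L-SFMA. With the trend removed 1 was higher on N-SFMA and 0 on L-SFMA. Beside these and the lists below, 21.6% of all tested genes were higher and 29.3% lower on NL-SFMA (trend-removed 19.1% and 18.9%), and 7.24% and 14.8% were higher on N-SFMA and L-SFMA. Dmxl2, a large scaffold that helps V1 join V0, was at 2.78, 7.47, 7.998 and 14.0 FPKM. Its partners in that complex, Dmxl1 (1.43, 2.40, 3.94 and 6.56 FPKM) and Wdr7 (7.11, 14.1, 13.3 and 20.1 FPKM), had the same lowest and highest library. The shortest of their 3 models is 7579 bases long, and on NL-SFMA their trend-removed differences were 1.04, 0.67 and 0.69. Ccdc115, an assembly factor with a model of 1853 bases, was at 35.8, 30.4, 32.4 and 14.2 FPKM, and -0.68 trend-removed on NL-SFMA.

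Other hydrolases outside the named set had 23 genes at the limit, of which 1 was higher and 6 lower on NL-SFMA (median -0.45, trend-removed 0.00 with 2 higher and 1 lower). The exception was Ids, the iduronate sulfatase, at 27.04, 54.8, 63.1 and 108 FPKM. It was the only one of the 23 called higher on each modified hydrogel, with trend-removed differences of 0.94, 1.04 and 1.89. Naglu, another enzyme of heparan sulfate breakdown, lay at -1.11 on NL-SFMA and -0.76 trend-removed, while Neu1 (-0.73, trend-removed -0.17) and Plbd2 (-0.72, trend-removed -0.28) were nearer to SFMA. Other membrane proteins had 23 genes at the limit, 2 higher and 7 lower on NL-SFMA (median -0.17, trend-removed -0.08 with 3 higher and 1 lower). Among them the tetraspanin Cd63 was at 124, 73.1, 70.3 and 50.4 FPKM, Tmem9 lay at -1.12 on NL-SFMA, the haem transporter Slc48a1 at -1.12 and the lipid transporter Abca2 at 1.03, and all 4 were under 1.5-fold with the trend removed.

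Genes that sort enzymes to the lysosome numbered 15, with 4 higher and 5 lower on NL-SFMA (median -0.45, trend-removed -0.15 with 2 higher and 3 lower). Gnptab, which starts the mannose 6-phosphate tag, was at 4.44, 5.83, 8.79 and 13.4 FPKM, and Gnptg, the gamma subunit of the same enzyme, at 21.1, 17.8, 19.6 and 10.4 FPKM. The subunits of 1 enzyme thus lay on opposite sides of SFMA on NL-SFMA, at 1.06 and -0.56 trend-removed. Nagpa, which finishes the tag, was at 4.10, 2.15, 4.49 and 1.22 FPKM, and the tag's receptor Igf2r at 3.16, 4.80, 8.61 and 8.18 FPKM. The list of lysosome fusion and positioning had 16 genes, 1 higher and 4 lower on NL-SFMA (median -0.14, trend-removed 0.04 with 1 higher and 2 lower). Bloc1s1 of the BORC complex, which moves lysosomes outward, lay at -2.10 and at -1.62 trend-removed. Borcs6 of the same complex was at -1.07 and -1.34, Bloc1s2 at -1.32 and -0.44, and the GTPase Arl8a at -0.91 and -0.26.

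The list of TFEB relatives and of mTORC1 on the lysosome had 20 genes, 6 higher and 6 lower on NL-SFMA (median -0.16, trend-removed -0.08 with 5 and 5). One of the lower genes as measured, Tfec (1.02, 0.320, 0.717 and 0.174 FPKM), reached the FPKM limit through SFMA alone. Its lower values elsewhere follow from the selection. The largest differences as measured were those of 4 small subunits of Ragulator, which anchors the Rag GTPases to lysosomes. Lamtor4 was at 47.5, 28.4, 27.4 and 5.23 FPKM, and Lamtor2 at 33.0, 17.1, 22.5 and 7.501 FPKM. Lamtor1 and Lamtor5 were at -1.76 each on NL-SFMA, and all 4 stayed past 1.5-fold lower trend-removed (-0.90 for Lamtor1, -1.40 for Lamtor2, -2.11 for Lamtor4 and -0.87 for Lamtor5). Lamtor3, another subunit of Ragulator, was under 1.5-fold on NL-SFMA (-0.58, trend-removed -0.31). The 6 higher genes there included Mtor (1.45, trend-removed 0.63) and Rragd (0.71, trend-removed 1.297). Tfe3, a relative of TFEB, was at 8.63, 9.94, 10.97 and 7.86 FPKM, well above Tfeb in every library. Autophagy genes numbered 22, with 2 higher and 7 lower on NL-SFMA (median -0.10, trend-removed -0.08 with 2 higher and 4 lower). Map1lc3a, which coats autophagosomes, was at 343, 231, 217 and 96.4 FPKM, and Gabarapl1, a relative, lay at -1.27 on NL-SFMA. Trend-removed, Map1lc3a was at -0.94 and Gabarapl1 at -0.64 on NL-SFMA. The kinase Ulk2 (17.4, 27.4, 31.9 and 46.8 FPKM) and its partner Rb1cc1 (4.84, 7.93, 10.6 and 17.8 FPKM), which start autophagosome formation, were highest on NL-SFMA and stood at 1.23 and 1.03 trend-removed.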

How the data were processed

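For each library the authors deposited a read count per gene and an FPKM value. Per the submitters' processing notes, HISAT2 and HTSeq 0.13.5 were used, and builds mRatBN7.2 and GRCh38 are named with no role. No source used here gives the strand setting or filters. The deposited FPKM equals the count over gene model length and summed count, which gave back whole model lengths to within 1e-06 bases. Members and gene lists were chosen with earlier results of these data known.

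Log2 differences of (FPKM + 1) were taken over the 12394 genes that reached 1 FPKM in 1 or more libraries. The trend with log2 length was fitted by lowess (statsmodels 0.14.6, span 0.3) and subtracted. The procedure was tested on simulated data. Alternatives used TMM (edgeR 4.0.16) and DESeq2 1.42.0 size factors. Members described by name were those among the 4 highest levels or the 4 largest differences of their class, and list genes the 4 largest differences. This rule took in 35 of the 43 members. Atp6v0a1, Atp6v1c1, Atp6v1g2, Atp6v1h, Ctsh, Ctsl, Glb1 and Lipa were named outside it, with their values known. So were Tfe3, Tfec, Lamtor3, Mtor, Rragd, Tcirg1, the 3 microglial markers that went against the rest and the overlapping genes. With 1 library per hydrogel, p-values, a replicate check and the count test of edgeR were not used.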

Additional observations from a re-analysis of the deposited data

How the results depend on the processing

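No paired analysis was possible because each hydrogel has 1 library. A class median counts as moved when it leaves the 95% binomial interval of the median over its members, and a count when it changes by over 1.5 times. Scaling shifted the median of all genes on NL-SFMA from -0.10 to -0.04 (TMM) or -0.02 (DESeq2). With the length trend removed by lowess, the pump median changed sign on N-SFMA (0.0778) and L-SFMA (0.0207), as did the membrane and cofactor median on NL-SFMA (0.0724); a running median along length, added after the data were seen, gave 0.0735, 0.0140 and 0.0472. DESeq2 size factors gave 0.0209 for that last median. Counts of members 1.5-fold higher and lower became 0 and 2 on N-SFMA and 1 and 0 on L-SFMA under both trend removals. On NL-SFMA 7 were lower under both, with 2 higher by lowess and 3 by the running median. TMM and DESeq2 each gave 2 higher on N-SFMA, and 2 higher and 2 lower on L-SFMA. Summed counts without mitochondrial and haemoglobin genes gave 2 lower on L-SFMA, as did a pseudocount of 0.1 FPKM. At 2-fold, the counts were 0 and 0 on N-SFMA and on L-SFMA, and 0 higher and 6 lower on NL-SFMA. The other medians and counts kept their direction under these settings and under FPKM limits of 5 or none. No called member changed sign under another scaling, pseudocount or the lowess trend. The uncalled Asah1 (NL-SFMA), Ctsf and Ctsl (N-SFMA), and Gla and Lipa (L-SFMA) did under scaling. Under the running median the called Atp6v1g2 on NL-SFMA went from -0.59 to 0.01. Under another scaling Atp6v1d (-0.56), Atp6v1e1 (-0.55), Atp6v1g2 (-0.50) and Gaa (-0.53) on NL-SFMA lost their lower calls. So did Ctsz on N-SFMA (-0.56), and Scarb2 (0.52) and Tpp1 (0.56) on L-SFMA lost their higher calls. Atp6v1a on N-SFMA (0.60), Ctso on L-SFMA (-0.59) and Atp6v1h on NL-SFMA (0.67) gained calls. Leaving out Ctso and Aif1, which reached the FPKM limit through SFMA alone, was also chosen after the data were seen. The cause of these changes was not tested, apart from the subtraction of length itself. Depth limits Tfeb, Mcoln1 and Ctso, and no interval here covers variation between cultures.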
